A study of Mus musculus with 12 samples.

Results

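Among the genes linked to autism are regulators that work on chromatin in the nucleus rather than at the synapse. The 9 of them described here are Chd8, Chd2, Adnp, Arid1b, Ash1l, Setd5, Pogz, Ankrd11 and Auts2, taken by gene symbol from a count table of 23893 genes, which held all 9. Arid1b mRNA was 2.61-fold lower in cortical neurons treated with topotecan than in untreated cells. In cells with Top1 deleted its log2 difference from untreated cells was 0.07 without the drug and 0.10 with it, and neither passed the test. Chd2 mRNA was 2.83-fold lower after Top1 deletion alone, a difference that passed the test only in some of the models fitted, and 2.70-fold lower after deletion and topotecan together. Auts2, whose gene spans 1106 kb, had higher mRNA after topotecan in each of the 3 replicate pairs. So did Chd8, Adnp and Pogz, which were not called. The rise of Auts2 was called only with a replicate block, and not when low counts were also filtered. Of the 43 measured genes annotated as longer than 1000 kb, 40 had a negative change.

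These proteins act in different parts of chromatin control. CHD8 and CHD2 are ATP-dependent remodellers that slide or exchange nucleosomes, and ARID1B is the DNA-binding subunit of the BAF remodelling complex. ASH1L is a histone H3 lysine 36 methyltransferase, and SETD5 carries a SET domain and associates with the NCOR and HDAC3 corepressor complex. ADNP and POGZ both bind heterochromatin protein 1, ANKRD11 recruits histone deacetylases to nuclear receptor coactivators, and AUTS2 joins a variant Polycomb repressive complex 1 that is known for activating transcription in neurons. Loss of 1 copy of these genes is found in children with autism or intellectual disability. TOP1 relaxes the supercoils that RNA polymerase II leaves in its path, and topotecan holds the enzyme on the DNA as a cleavage complex.

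RNA was sequenced from cultured mouse cortical neurons taken at E13.5 to 15.5 (strain C57BL6 in the labels). Per the study's methods all 12 cultures were Top1 fl/fl, with LoxP sites around exon 3, although the protocol text names wild-type C57BL6/J females as the source. Control cultures (WT in the text below) received a CaMKIIα-tdTomato lentivirus at day in vitro 3 and Top1 cKO cultures a CaMKIIα-tdTomato-P2A-CRE lentivirus. At day 15 they received either 0.003% DMSO (Veh) or 300 nM topotecan in the same DMSO (Topot), for 3 days. Each of the 4 groups had 3 libraries: WT cells with vehicle (WT-Veh) or drug (WT-Topot), and likewise Top1 cKO-Veh against Top1 cKO-Topot. The CaMKIIα promoter restricts CRE to neurons and about 85% to 90% of cells were transduced, so each Top1 cKO library also holds RNA from cells that kept Top1. The study describes the 3 replicates of a group as cultures. Whether these came from separate dissections is not given in the sources used here, so p-values measure only the spread between these libraries.

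The libraries held 1730164 to 4583777 counts, and the 9 genes drew from 31 counts (Chd2, 1 library) to 1221 counts (Adnp) each. Levels are given as counts scaled to library size after TMM scaling (CPM). A gene is said to have risen or fallen where the Benjamini-Hochberg adjusted p of edgeR's quasi-likelihood test, over all 23893 genes, was under 0.01. Libraries with the same replicate number deviated together, so the fit that blocks on that number is also given where it changes a member's call or a list's count. The blocked fits draw the variance largely from all genes together, so a small p-value there rests little on a member's own libraries. Called shares of all 23893 genes are followed in parentheses by the share of the 13720 genes averaging 1 CPM or more over the 12 libraries, here called expressed. The deleted gene checked the labels: Top1 had 117, 163 and 124 CPM in the 3 WT-Veh libraries and 129, 139.7 and 130.2 CPM in WT-Topot. It had 30.1, 44.0 and 27.1 CPM in Top1 cKO-Veh and 29.1, 37.5 and 28.4 CPM in Top1 cKO-Topot, below every WT library. Neuronal markers were abundant (summed 5487 to 8267 CPM over 8 genes), and the microglial markers summed to at most 13.2 CPM.

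Levels per kilobase divide counts over RefSeq exons by the merged exon length of all GENCODE transcripts, so their order can depend on the annotation. Auts2, for example, averaged 66.9 CPM in WT-Veh, above Chd2 (55.1 CPM) and Pogz (51.9 CPM), but was below both per kilobase. Per kilobase of exon, Adnp was the most abundant of the 9 mRNAs in WT-Veh cells at 50.6 ± 3.32 CPM per kb (mean ± SD, n = 3). Ankrd11 followed with 21.0 ± 3.83 CPM per kb, and Ash1l and Setd5 were close together at 15.3 ± 2.61 and 15.2 ± 2.91 CPM per kb. Every Adnp library was above every Ankrd11 library, whereas the ranges of Ankrd11 and Ash1l overlapped and so did those of Ash1l and Setd5. The lower group held Chd8 (7.39 ± 0.631 CPM per kb), Arid1b (6.91 ± 0.0426), Chd2 (5.78 ± 1.2), Pogz (5.64 ± 0.689) and Auts2 (4.12 ± 1.02). Beside Adnp and Ankrd11, the neighbours in that order without overlap were Setd5 and Chd8, and Arid1b and Chd2. Arid1b was the last of the 9 in WT-Topot, at 2.62 ± 0.763 CPM per kb, below every Chd2 library. Chd2 was last in both Top1 cKO groups, at 2.03 ± 0.353 CPM per kb with vehicle and 2.12 ± 0.267 CPM per kb with topotecan, and below every Auts2 library.

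**Figure D1:**
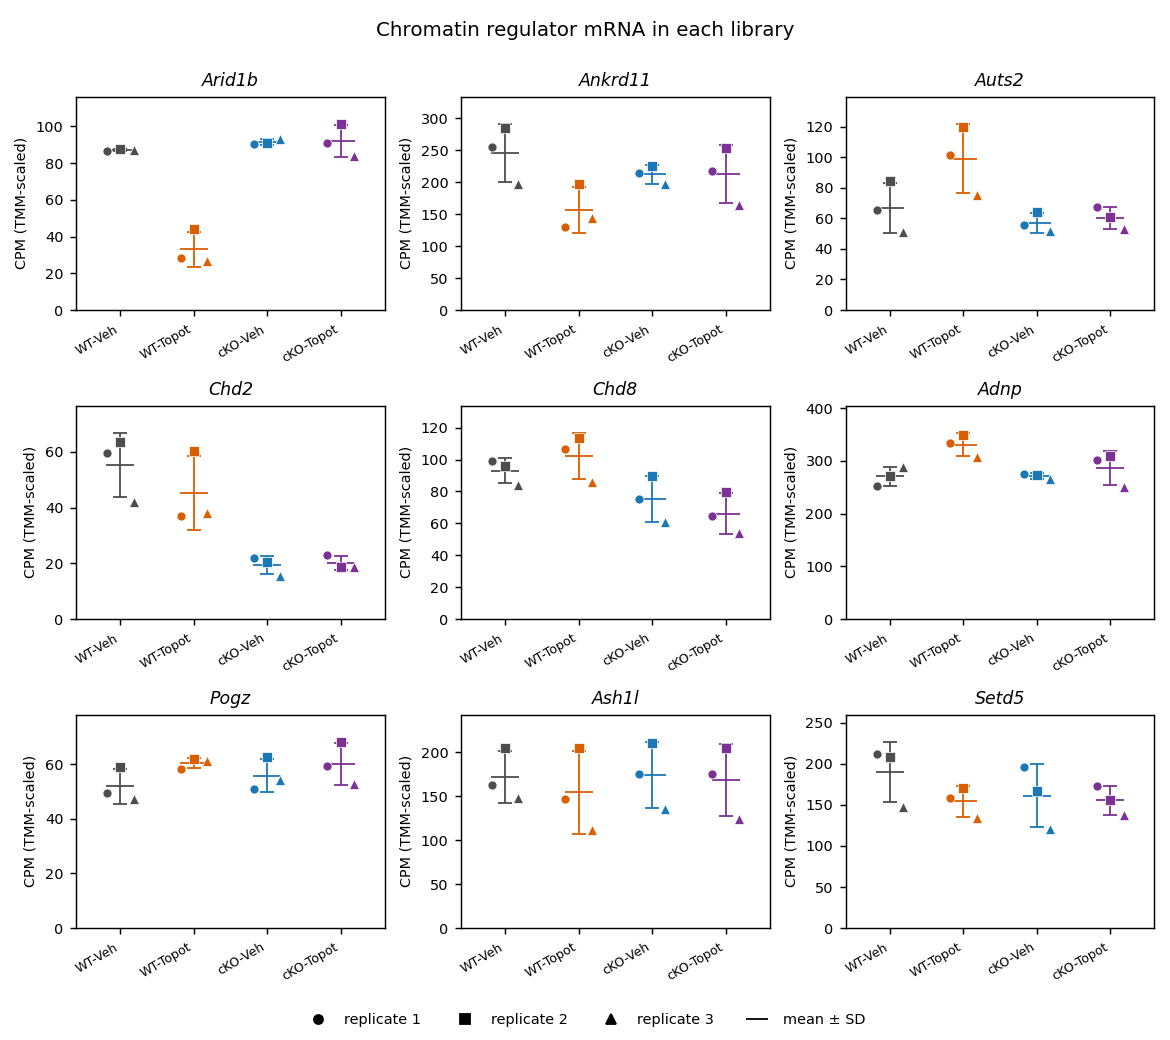
Level of each of the 9 mRNAs (CPM after TMM scaling, linear axis from 0) in the 12 libraries, by group, where cKO stands for Top1 cKO. Symbols mark replicates 1 to 3 and bars the mean ± SD of 3 libraries. Arid1b is low in the 3 WT-Topot libraries alone (26.6 to 44.1 CPM), and Chd2 is low in all 6 Top1 cKO libraries (15.5 to 23.1 CPM).

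The first comparison asked what topotecan did in cells that kept TOP1 (WT-Topot against WT-Veh). Of the 9 regulators, 1 fell and 0 rose, where 2.04% (3.56%) of genes were called lower and 0.682% (1.19%) higher. With the replicate block, 2 fell and 1 rose, where 5.0% (8.71%) of genes were called lower and 3.24% (5.62%) higher. The median log2 fold change of the 9 was -0.15. At an unadjusted p under 0.05, 2 were lower and 1 higher. The shares of all genes at that unadjusted threshold were not computed, so such counts here and below have no background beside them.

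Arid1b, the BAF subunit, had 86.6, 87.7 and 87.0 CPM in WT-Veh and 28.5, 44.1 and 26.6 CPM in WT-Topot. Every treated library lay below every control library, and treated replicate 2 was the highest of the treated ones. The log2 fold change was -1.38 (SE 0.220, 95% CI -1.84 to -0.923; adjusted p = 4.08e-04). Across the alternatives the adjusted p ranged from 2.88e-11 to 0.00213, so the call held under each of them.

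Ankrd11, which couples histone deacetylases to nuclear receptors, had 255, 284 and 196 CPM in WT-Veh and 129, 197 and 143 CPM in WT-Topot. The groups overlapped, because treated replicate 2 lay just above control replicate 3, but each treated library was below the control library of its own number. The log2 fold change was -0.64 (SE 0.200; adjusted p = 0.0813), and with the replicate block the adjusted p was 3.27e-05. Among the alternatives it ranged up to 0.299, without WT-Topot replicate 1, and was 0.00794 without WT-Veh replicate 3.

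Auts2, the Polycomb-associated activator, had 65.2, 84.2 and 51.3 CPM in WT-Veh and 102, 119.9 and 75.4 CPM in WT-Topot. Treated replicate 3 lay below control replicate 2, so the groups overlapped, while within each replicate number the treated library was higher by a similar step (log2 ratios 0.64, 0.51 and 0.56). The log2 fold change was 0.57 (SE 0.222; adjusted p = 0.218) and the blocked adjusted p was 0.00353. The alternatives ran up to 0.659, without WT-Topot replicate 2, and the block combined with a filter on low counts did not call it.

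The other 6 did not pass the test with or without the block. Adnp, a homeodomain and zinc finger protein, had 252, 272 and 288 CPM in WT-Veh and 335, 349 and 307 CPM in WT-Topot. All 3 treated libraries were above all 3 controls, a pattern that 12.9% of expressed genes showed in the same direction. Its log2 fold change was 0.29 (95% CI -0.0550 to 0.639; adjusted p = 0.534, with the block 0.0967). Pogz, a zinc finger partner of heterochromatin protein 1, had a log2 fold change of 0.23 and Chd8 of 0.14. The log2 fold changes of Ash1l (-0.15), Chd2 (-0.29) and Setd5 (-0.30) were negative, each with a 95% CI that spanned 0.

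**Figure D2:**
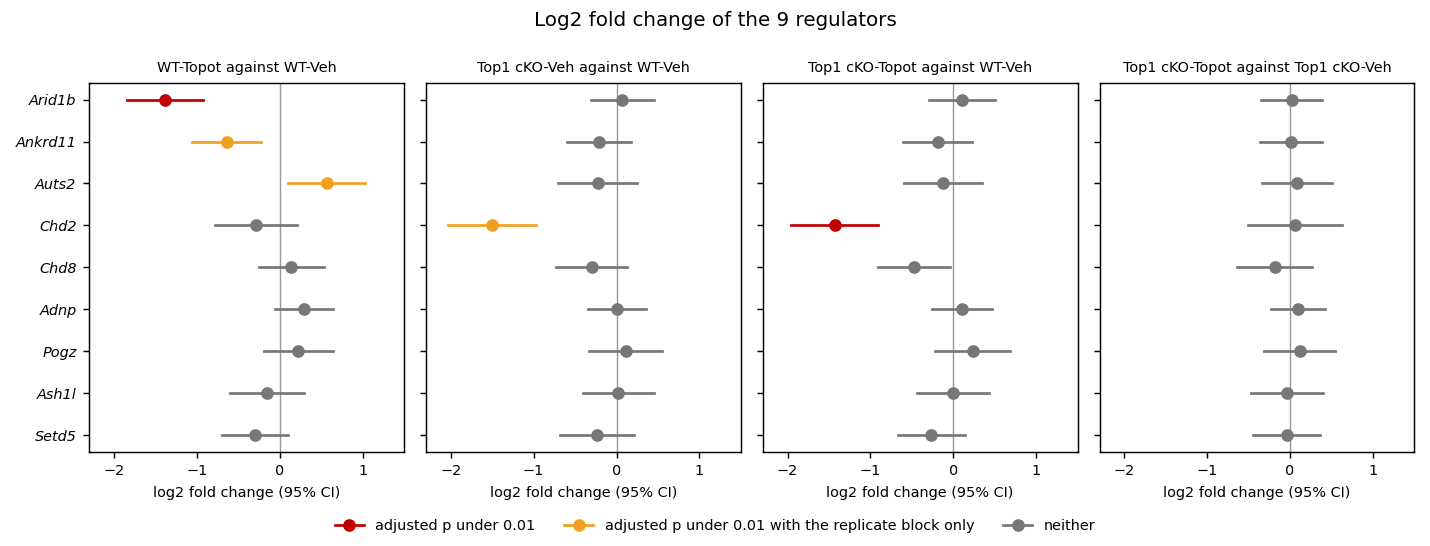
Log2 fold change (points) with its 95% CI (lines) of the 9 regulators in 4 comparisons, from edgeR's quasi-likelihood fit without the block. Red marks an adjusted p under 0.01, orange one under 0.01 only with the replicate block, grey neither. Arid1b is at -1.38 in WT-Topot and near 0 in the other comparisons, and Chd2 is at -1.50 and -1.43 in the Top1 cKO groups against WT-Veh.

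Topotecan is known to lower the expression of long genes, so the change of each regulator was set beside that of genes of similar span. The spans, in the mm9 assembly with GENCODE annotation, were 26.1 kb for Adnp (chr2:168006486-168032612), 39.6 kb for Chd8 (chr14:52817826-52857466), 44.8 kb for Pogz (chr3:94641489-94686248) and 76.1 kb for Setd5 (chr6:113027359-113103429). Genes of 100 kb or less had a median log2 fold change of 0.08 with topotecan in WT cells, and these 4 lay between -0.30 and 0.29. Ash1l (113.6 kb, chr3:88769734-88883295), Chd2 (115.1 kb, chr7:80571577-80686632) and Ankrd11 (158.7 kb, chr8:125407221-125565897) belong to the class of 100 to 200 kb. That class had a median of -0.21 with quartiles of -0.54 and 0.12, so Ankrd11 at -0.64 was below its lower quartile and Ash1l and Chd2 were within the quartiles. Arid1b (353.3 kb, chr17:4994332-5347656) belongs to the class of 200 to 500 kb, where 90.2% of 645 genes had a negative change and the median was -0.85. Its log2 fold change of -1.38 was at the lower quartile of that class, also -1.38.

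Auts2 (1106 kb, chr5:131913205-133019214) had a positive change in a class of mostly negative ones. The 43 genes over 1000 kb had a median log2 fold change of -2.56, 33 of them fell and 0 rose, and with the block 34 fell and Auts2 alone rose. Auts2 had the highest log2 fold change of the 43, with Arfip1 (0.37) and Macrod2 (0.27) next, neither of which passed the test. A span here is the full extent of a gene's GENCODE record. Spans were not checked against RefSeq, so some of the 43, Arfip1 included, may be shorter there. The annotation gives Auts2 6 coding transcripts whose starts are spread over 1069.3 kb, the shortest of them spanning 14.6 kb. Arid1b likewise has 4 coding transcripts with starts spread over 346.8 kb. Counts summed over the exons of a symbol cannot say which of these transcripts changed.

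**Figure D3:**
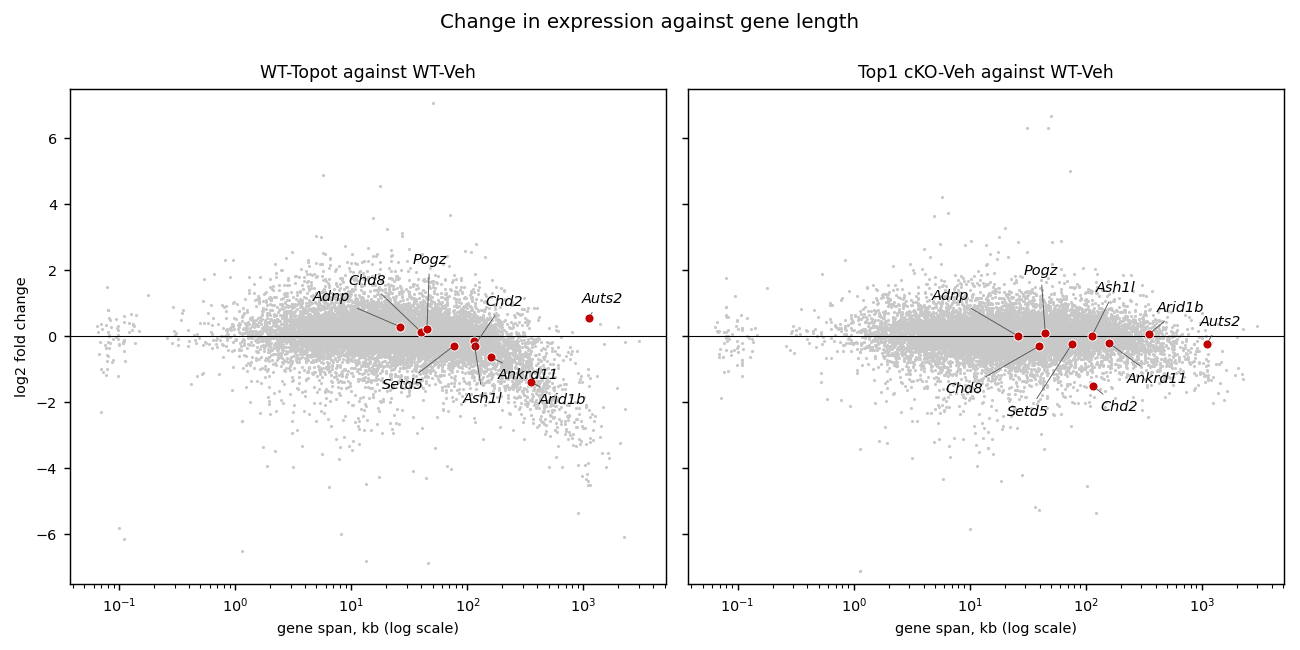
Log2 fold change (without the block) against gene span on a log axis, for topotecan in WT cells and for Top1 deletion. Grey points are expressed genes with a matched annotation, red points the 9 regulators. On the left Arid1b lies with the falling long genes and Auts2 (0.57) above them, and on the right Chd2 (-1.50) is the regulator farthest from 0.

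The second comparison asked what loss of Top1 did without the drug (Top1 cKO-Veh against WT-Veh, which uses the same WT-Veh libraries as the first). Without the block 0 of the 9 fell and 0 rose, where 0.126% (0.219%) of genes were called lower and 0.0460% (0.0802%) higher, and at an unadjusted p under 0.05 there was 1 lower, Chd2. With the block 1 fell and 0 rose, where 2.95% (5.15%) of genes were called lower and 2.60% (4.53%) higher. The median log2 fold change of the 9 was -0.21.

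Chd2, a remodeller that deposits histone variant H3.3 at active genes, had 59.7, 63.6 and 42.0 CPM in WT-Veh and 21.9, 20.6 and 15.5 CPM in Top1 cKO-Veh. The highest deleted library was well below the lowest control, and the log2 ratios within the 3 replicate numbers were -1.45, -1.62 and -1.44. The log2 fold change was -1.50 (SE 0.252, 95% CI -2.04 to -0.968; adjusted p = 0.0113), just short of the threshold. With the replicate block the adjusted p was 3.17e-12, and with the block and a filter on low counts it was 1.11e-04. Over the alternatives it ranged from 3.17e-12 to 0.0599, the highest without WT-Veh replicate 2. The long non-coding RNA 1810026B05Rik, transcribed next to Chd2, had 12 ± 4.62 CPM in WT-Veh and 8.15 ± 2.63 CPM in Top1 cKO-Veh (log2 fold change -0.61, adjusted p = 0.808).

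Arid1b had 90.3, 90.9 and 93.2 CPM in Top1 cKO-Veh cells. These 3 values were all slightly above the 3 controls, as in 9.58% of expressed genes, with a log2 fold change of 0.07 (95% CI -0.313 to 0.456; adjusted p = 1). An Arid1b loss of the size seen with topotecan lies outside that interval. Chd8, a remodeller that binds the promoters of many genes expressed in the developing brain, had 99.2, 96.0 and 84.1 CPM in WT-Veh and 75.5, 89.8 and 60.6 CPM in Top1 cKO-Veh. Each deleted library was below its control of the same number, the groups overlapped, and the log2 fold change of -0.30 did not pass (adjusted p = 0.844, with the block 0.252). Ankrd11 (-0.21), Auts2 (-0.23) and Setd5 (-0.24) had negative log2 fold changes and Adnp (0.0042), Ash1l (0.02) and Pogz (0.11) had values near 0, none of them called.

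In the third comparison cells with both treatments were set against untreated controls (Top1 cKO-Topot against WT-Veh, again the same controls). Of the 9, 1 fell and 0 rose with and without the block, where 1.21% (2.11%) of genes were called lower and 0.473% (0.824%) higher without it, and 4.02% (7.00%) lower and 3.34% (5.82%) higher with it. The gene was Chd2, which had 23.1, 18.6 and 18.8 CPM in Top1 cKO-Topot. These were all below the lowest control library and in the same range as the cells with deletion alone. The log2 fold change was -1.43 (SE 0.251; adjusted p = 0.00151), and the alternatives ranged from 1.67e-06 to 0.0169, the highest without Top1 cKO-Topot replicate 2. Without WT-Veh replicate 2 it was 0.0107, which also misses the threshold.

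Chd8 had 64.5, 79.4 and 53.8 CPM in Top1 cKO-Topot, all below the lowest WT-Veh library. Its log2 fold change was -0.48 (SE 0.208; adjusted p = 0.295, with the block 0.0353), so it was not called. A lower range without overlap was found in 14.4% of expressed genes in this comparison. Arid1b had 90.8, 101 and 83.9 CPM and a log2 fold change of 0.10 (95% CI -0.298 to 0.501), in contrast to its value with topotecan alone. Auts2 stood at 67.3, 61.1 and 52.9 CPM, within the range of WT-Veh, with a log2 fold change of -0.13.

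Topotecan given to cells that lacked Top1 (Top1 cKO-Topot against Top1 cKO-Veh) changed 0 of the 9 by edgeR, with or without the block, and at an unadjusted p under 0.05 there were also 0. DESeq2 and the edgeR exact test called 0 as well. Of all genes 0.00837% (0.0146%) were called lower and 0% (0%) higher without the block, and 1.74% (3.02%) lower and 0.858% (1.49%) higher with it. The log2 fold changes of the 9 ran from -0.19 (Chd8) to 0.11 (Pogz). For Arid1b it was 0.02 (95% CI -0.351 to 0.389) and for Auts2 0.09 (95% CI -0.335 to 0.509). For Ankrd11 it was 0.01 (95% CI -0.364 to 0.385), with 214, 226 and 197 CPM before and 218, 254 and 164 CPM after the drug.

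Whether the drug acted differently in the presence and absence of Top1 was tested as an interaction over all 12 libraries. Without the block 0 of the 9 passed, where 0.0377% (0.0656%) of genes had a negative and 0.398% (0.692%) a positive difference. With the block 2 passed, both positive, where 1.53% (2.66%) were negative and 2.44% (4.24%) positive. Arid1b had a difference of 1.39 on the log2 scale (SE 0.271; adjusted p = 0.0104), and 4.74e-06 with the block, with a range over the alternatives up to 0.0371 without WT-Topot replicate 1. Ankrd11 had 0.65 (SE 0.275; adjusted p = 0.480, with the block 0.00874, highest 0.796). Auts2 had -0.49, in the opposite direction, and did not pass in any fit (adjusted p = 0.822, with the block 0.222).

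Trapped and absent TOP1 were also compared with each other (WT-Topot against Top1 cKO-Veh). Without the block 1 of the 9 was lower and 0 higher in WT-Topot, where 1.23% (2.15%) of genes were called lower and 0.293% (0.510%) higher. With the block 2 were lower and 2 higher, against 4.80% (8.35%) and 2.93% (5.06%) of genes. Arid1b was 2.75-fold lower in the drug-treated cells (log2 fold change -1.46, SE 0.215; adjusted p = 6.62e-04). Chd2 was 2.31-fold higher in them (1.21, SE 0.255; adjusted p = 0.0109, with the block 8.41e-06, highest 0.0635 without WT-Topot replicate 2). Auts2 was 1.72-fold higher (0.79, SE 0.204; adjusted p = 0.0408, with the block 4.81e-05, highest 0.163), and its 3 drug-treated libraries were above all 3 deleted ones. Ankrd11 had a log2 fold change of -0.44 (adjusted p = 0.285, with the block 0.00345, highest 0.827).

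A comparison chosen after these values were seen set the drug-treated groups against each other (Top1 cKO-Topot against WT-Topot). The second comparison did not use these libraries, but the others did, so the values are not independent of those above. Without the block 1 of the 9 was lower and 1 higher, where 1.03% (1.79%) of genes were called lower and 1.46% (2.55%) higher. With the block 3 were lower and 2 higher, against 4.08% (7.08%) and 4.60% (8.02%) of genes. Chd2 had 36.9, 60.4 and 38.1 CPM in WT-Topot, above all 3 Top1 cKO-Topot libraries, and a log2 fold change of -1.17 (SE 0.250; adjusted p = 0.00509, highest 0.0617 without WT-Topot replicate 2). Arid1b was higher by 1.46 (SE 0.216; adjusted p = 1.22e-04). Chd8 had 107, 114 and 86.1 CPM in WT-Topot against 64.5, 79.4 and 53.8 CPM, without overlap, and a log2 fold change of -0.63 (adjusted p = 0.0626, with the block 5.57e-04, highest 0.206 without WT-Topot replicate 2). The other calls with the block were Auts2, lower by a log2 fold change of -0.72 (1.91e-04, highest 0.208), and Ankrd11, higher by 0.43 (0.00607, highest 0.766). For Arid1b, Auts2 and Ankrd11 the log2 fold changes with topotecan in WT were -1.38, 0.57 and -0.64. Deletion without the drug gave 0.07, -0.23 and -0.21, so these 3 differences largely restate the change in WT-Topot.

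Ratios of counts taken within a library do not depend on the scaling between libraries. They were chosen after the levels had been seen. For each Arid1b count, WT-Veh libraries held 0.589 to 0.960 Auts2 counts and WT-Topot libraries 2.72 to 3.56. The ratio was 0.554 to 0.708 in Top1 cKO-Veh, each library below the WT-Veh library of its own number, and 0.605 to 0.741 in Top1 cKO-Topot. Both ranges overlapped that of WT-Veh and lay below that of WT-Topot. The ratio of Chd2 to Chd8 counts was 0.500 to 0.662 in WT-Veh, 0.346 to 0.531 in WT-Topot, 0.230 to 0.290 in Top1 cKO-Veh and 0.234 to 0.358 in Top1 cKO-Topot. Here both deleted groups lay below WT-Veh, and the ranges of the drug-treated WT cells and the drug-treated deleted cells overlapped.

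**Figure D4:**
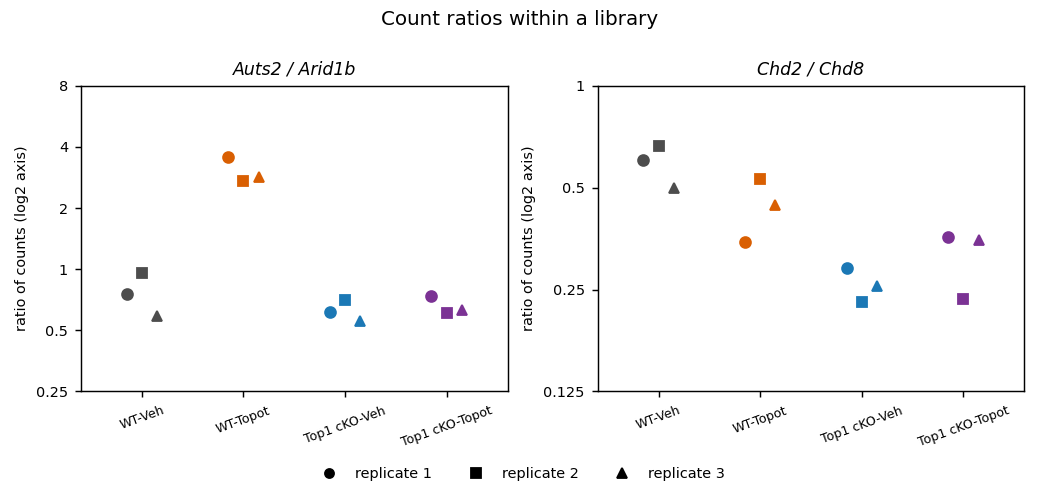
Ratio of counts of 2 genes in the same library (log2 axis) for Auts2 over Arid1b and Chd2 over Chd8, by group, with symbols for replicates 1 to 3. Auts2 over Arid1b is 2.72 to 3.56 in the WT-Topot libraries and below 1 in the other 9.

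Adnp and the remaining 3 regulators, Ash1l, Setd5 and Pogz, were not called in any comparison, with or without the block. Ash1l, the H3 lysine 36 methyltransferase, had 163, 205 and 148 CPM in WT-Veh, 147, 205 and 111 CPM in WT-Topot, 176, 211 and 136 CPM in Top1 cKO-Veh and 176, 206 and 124 CPM in Top1 cKO-Topot. In every group replicate 2 was the highest and replicate 3 the lowest. Setd5 had 213, 209 and 148 CPM in WT-Veh, and 134 to 171 CPM in WT-Topot, 120.2 to 196 CPM in Top1 cKO-Veh and 138 to 173 CPM in Top1 cKO-Topot. Pogz ran from 47.2 to 59.2 CPM in WT-Veh and from 50.8 to 68.1 CPM over the other groups.

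The families and complexes of these proteins, and other autism-linked nuclear regulators, were read from lists of 79 other chromatin and nuclear genes. With topotecan in WT cells 2 of the 79 fell and 3 rose (7 and 8 with the block), and their median log2 fold change was -0.04. Among expressed genes 3.56% were called lower and 1.19% higher (8.71% and 5.62% with the block), so the share lower over all 79 was near the background. Without the block both lower calls were among the 18 other autism-linked nuclear regulators, and each of the other lists had 0 lower. The share higher was above the background with and without the block, and this difference was not tested. Of the 16 BAF subunits beside Arid1b, Smarcd3, a neuronal BAF subunit, rose by 1.14 (adjusted p = 0.00855) and 0 fell, while with the block 1 fell and 4 rose. Of the 7 other CHD remodellers Chd3, the NuRD ATPase, rose by 0.84 (adjusted p = 0.00357), also the one call with the block, and of the 12 partners of AUTS2 in Polycomb complexes 0 passed in either direction, also with the block. Among 18 other autism-linked nuclear regulators, Myt1l (-2.14, 394.8 kb) and Mbd5 (-1.44, 372.8 kb) fell and Tbr1 (1.12, 11.2 kb), a transcription factor of deep cortical layers, rose (6 lower and 1 higher with the block). Myt1l represses non-neuronal genes, and Mbd5 is a methyl-CpG-binding domain protein.

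Synaptic autism candidates gave another picture. Of 14 such genes, 7 fell and 0 rose with topotecan in WT cells (9 and 1 with the block), with a median log2 fold change of -0.93, against 1 and 0 of the 9 chromatin regulators with a median of -0.15. The adhesion genes Cntnap2 (-6.10) and Dscam (-3.66) and the potassium channel gene Kcnq3 (-2.03) were among them. Cntnap2 averaged 10.9 CPM in WT-Veh and 0.143 CPM in WT-Topot, close to the floor of the counts, so the size of its fall is imprecise. The median span was 113.6 kb for the 9 and 264.7 kb for the 14. With Top1 deletion 0 of 14 were called (7 lower and 1 higher with the block), and with both treatments 5 fell and 0 rose (7 and 2 with the block). The difference between the lists was not tested.

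With both treatments, 3 of the 79 chromatin and nuclear genes fell and 2 rose (9 and 10 with the block). Among expressed genes 2.11% were called lower and 0.824% higher in this comparison (7.00% and 5.82% with the block). Ncor1, the nuclear receptor corepressor of the complex that also contains HDAC3, fell by 1.70, Kmt2e by 1.13 and Mbd5 by 2.09 on the log2 scale, and Chd6 and the H3 lysine 4 methyltransferase gene Kmt2a rose by 1.14 and 0.99. Deletion alone called 0 of the 79 without the block, and 6 lower and 5 higher with it. With the block 5.15% of expressed genes were called lower and 4.53% higher, so these counts were near the background.

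**Figure D5:**
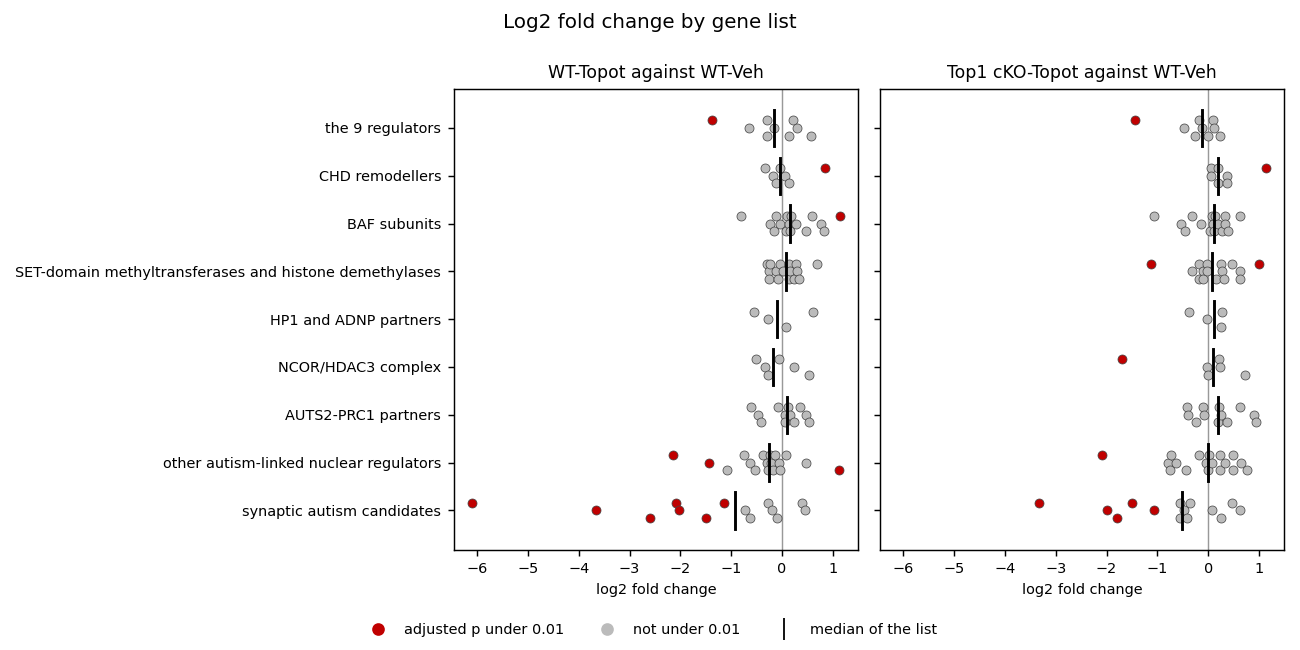
Log2 fold change of each gene (points; red for an adjusted p under 0.01 without the block) and the median (black bar) of the 9 regulators and 8 other lists, in WT-Topot and in Top1 cKO-Topot against WT-Veh. The synaptic list reaches -6.10 with topotecan (Cntnap2, at a mean of 0.143 CPM in WT-Topot), while the 79 other chromatin and nuclear genes lie between -2.14 and 1.14.

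The genes whose levels ran most alike over the 12 libraries, by Pearson's r of log2(CPM + 1) against 13719 other genes, were these. For Arid1b they were Spock1 (r = 0.98), Camk1d (0.97) and Csmd2 (0.97), with spans of 484 kb, 421 kb and 579.8 kb and log2 fold changes with topotecan of -1.29, -1.37 and -2.62. For Chd2 they were Pck2, Ift140 and Mbtps2 (all 0.94), and for Auts2 Wfs1 (0.92), Zfp362 (0.92) and Srp72 (0.91), the last 3 with spans of 22.9 kb, 33.0 kb and 25.3 kb. For Ankrd11 the closest was Arhgap39 (0.97) and for Chd8 Prrc1 (0.96). Between members, Chd8 and Chd2 (r = 0.78) and Arid1b and Ankrd11 (r = 0.78) were the closest pairs. The points share treatment groups and library depth, so these values describe the 12 libraries only.

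Astrocyte transcripts moved with the drug. The 6 astrocyte markers summed to 1265 to 3275 CPM in WT-Veh and 617 to 1297 CPM in WT-Topot, where 2 of the 6 fell (4 with the block). They summed to 1300.2 to 3681 CPM in Top1 cKO-Veh and 623 to 1718 CPM in Top1 cKO-Topot, where 0 passed without the block and 4 of 6 were lower with it. The 8 neuronal markers summed to 6492 to 8267 CPM in WT-Veh and 5487 to 6074 CPM in WT-Topot, where 2 of the 8 fell (4 lower and 2 higher with the block). The 5 interneuron markers summed to 772 to 1694 CPM in WT-Veh and 524 to 955 CPM in WT-Topot, with 0 called without the block and 3 lower and 1 higher with it. In bulk RNA, fewer cells of a type and less RNA per cell cannot be told apart, and the part of these shifts in the results for Arid1b, Ankrd11 and Auts2 was not tested.

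In the GENCODE annotation 2 of the 9 share exon bases with another gene. Whether the RefSeq exons used for counting overlap in the same way was not checked. Adnp shares 4393 annotated exon bases with a transcript of Dpm1 on the same strand, and Dpm1 had group means of 15.5 to 26.4 CPM. How reads of the shared bases were assigned is not given in the sources used here. Chd8 shares 824 exon bases with Gm16682 on the opposite strand, which the table does not list. Whether counting used strand is not given in the sources used here.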

How the data were processed

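RNA was sequenced from 12 libraries (4 groups of 3) of cultured cortical neurons, as poly(A)-selected paired reads. The authors aligned reads to mm9 with TopHat, removed ribosomal RNA reads and deposited raw counts over RefSeq exons per gene symbol; the counting program, its strand setting and tool versions are not given in the sources used here. The members and gene lists were chosen with earlier results of these data known. Columns were mapped to groups by the labels.

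Counts were tested with edgeR 4.0.16 (R 4.3.3, limma 3.58.1) by the quasi-likelihood test after TMM scaling, each comparison on its 6 libraries and the interaction on all 12, with no filter on low counts. The p-values were adjusted by Benjamini-Hochberg over 23893 genes, with a threshold of 0.01. SE is the log2 fold change divided by the root of F. Same-numbered libraries of different groups deviated together (r 0.261 to 0.485 over 18 pairs, 13720 genes averaging 1 CPM or more). The numbers, which come from the labels, were therefore taken to pair the libraries. The 36 pairs with different numbers had r of -0.384 to -0.0494. Deviations were taken from group means, so positive same-number values force negative ones there, which are no separate evidence. Replicate 3 had the fewest counts in every group, so shared depth and shared culture origin cannot be told apart here. Alternatives were the block, RLE and upper quartile scaling, filterByExpr, the exact test, DESeq2 1.42.0, 1 fit of all libraries, an adjusted p under 0.1 and the omission of each library. Robust estimation, the block with filterByExpr and the comparison of Top1 cKO-Topot with WT-Topot were chosen after seeing the data. The script was tested on simulated data. Gene spans and exon lengths came from GENCODE on mm9, matched by 21013 symbols directly and 1046 through synonyms, with 1834 unmatched. All members and Top1 are named, with list genes at an adjusted p under 0.01 (at most 4 per list and comparison, by smallest p) and the 3 genes most like each member. A gene that this rule selects is not reported here. Depth was 1730164 to 4583777 counts per library.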

Additional observations from a re-analysis of the deposited data

Results flagged for a closer look

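By the interaction test with the replicate block, the effect of topotecan differed between cells with and without Top1 for 2 of the 9 genes. Both differences were positive, where 2.44% of all genes and 4.24% of expressed genes were called positive. For Arid1b the difference (the effect in Top1 cKO minus that in WT) was 1.40 on the log2 scale (edgeR adjusted p = 4.74e-06). For Ankrd11 it was 0.64 (edgeR adjusted p = 0.00874). Without the block neither passed, with edgeR adjusted p = 0.0104 and 0.480. The unblocked value of Ankrd11 rose to 0.796 without WT-Topot replicate 1. With the block and filterByExpr only Arid1b was called.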

How the results depend on the processing

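With the replicate block, 2 of the 9 were lower and 1 higher with topotecan in WT, 1 was lower with Top1 deletion, 2 were lower and 2 higher in drug-treated WT than in deleted cells, 3 were lower and 2 higher with deletion under topotecan, and 2 had a positive interaction. The pairing changed no other member call. The block with filterByExpr gave 2 lower with topotecan in WT, 1 lower with deletion, 2 higher in drug-treated WT than in deleted cells, 3 lower and 2 higher with deletion under topotecan, and 1 positive interaction, and filterByExpr alone left 0 lower with deletion under topotecan. Chd2 passed with deletion (1 lower) by the exact test, DESeq2, the fit of all 12 libraries and robust estimation. These and upper quartile scaling called 1 higher in drug-treated WT than in deleted cells, and RLE, upper quartile scaling and DESeq2 called 1 positive interaction. At an adjusted p under 0.1 the counts were 2 lower with topotecan in WT, 1 lower with deletion, 2 higher in drug-treated WT than in deleted cells, 3 lower with deletion under topotecan and 1 positive interaction. The shares of all genes at an adjusted p under 0.1 were not computed, and the causes were not tested. The exact test and the fit of all 12 libraries give no separate interaction value.

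Over omissions of 1 library, the count lower was between 1 and 2 with topotecan in WT (1 with all libraries), between 0 and 1 with deletion (0 with all), between 0 and 1 with both treatments (1 with all) and between 0 and 2 with deletion under topotecan (1 with all). The count higher in drug-treated WT than in deleted cells and the positive interactions were between 0 and 1 (0 with all). Calls of Chd2 with both treatments were lost without WT-Veh replicate 2 or Top1 cKO-Topot replicate 2, and under topotecan without WT-Topot replicate 2 or Top1 cKO-Topot replicate 2.

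Signs changed only for uncalled values of at most 0.18 (log2). Adnp with deletion was -0.0074 under filterByExpr and -0.0033 with the block added, and Ash1l with both treatments 0.0065 under upper quartile scaling. Ankrd11 with topotecan in Top1 cKO was -0.00049 in the fit of all libraries and -0.0023 under block and filter. Pogz with deletion under topotecan was 0.0066 (RLE), 0.0073 (filterByExpr), 0.0071 (DESeq2) and 0.0076 (block and filter). Over single omissions, log2 fold changes that crossed 0 ranged, with topotecan in WT, from -0.40 to 0.031 (Ash1l). With deletion they ranged from -0.048 to 0.051 (Adnp) and -0.14 to 0.17 (Ash1l), and with both treatments from -0.20 to 0.17 (Ash1l) and -0.28 to 0.069 (Auts2). With topotecan in Top1 cKO they ranged from -0.063 to 0.15 (Chd2), -0.051 to 0.079 (Arid1b), -0.20 to 0.14 (Ash1l), -0.21 to 0.12 (Setd5), -0.14 to 0.16 (Ankrd11) and -0.0073 to 0.17 (Auts2). Between WT-Topot and Top1 cKO-Veh they ranged from -0.41 to 0.032 (Ash1l) and -0.24 to 0.10 (Setd5). With deletion under topotecan they ranged from -0.061 to 0.38 (Ash1l), -0.081 to 0.090 (Setd5) and -0.12 to 0.075 (Pogz), and for the interaction from -0.083 to 0.36 (Ash1l). Chd2, with 31 to 211 counts a library, has the least depth of the 9.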
